A study of Mus musculus with 12 samples.

Results

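The 10 genes described here serve the MHC class II presentation pathway: the classical chains H2-Aa, H2-Ab1 and H2-Eb1, the chaperone Cd74, the peptide-loading genes H2-DMa, H2-Oa and H2-Ob, the endosomal enzymes Ctss and Ifi30, and the transactivator Ciita. They were chosen by symbol, as every probe set annotated with exactly 1 of these symbols, which gave 18 of the 45101 probe sets on the array and 10 of its 18194 annotated genes. All 18 probe sets passed the filter on low signals. A further 2 probe sets carried a member symbol together with that of another gene and were left out. Total RNA of the left lung of 12 mice, 3 in each of 4 groups, was read on 12 Affymetrix arrays of the Mouse Genome 430 2.0 type. Nfkb1KO-O3 and Nfkb1KO-Air mice were Nfkb1-/-, with the germline Nfkb1tm1Bal allele on a mixed background, and lack the p105 and p50 proteins of NF-κB in every cell. WT-O3 and WT-Air mice were Nfkb1+/+ F2 hybrids (B6129PF2/J), so that the loss of Nfkb1 and the background of its strain cannot be told apart. All mice were males of 6 to 8 weeks, and the O3 groups breathed 0.3 ppm O3 without interruption for 48 h while the Air groups breathed filtered air in another chamber. Values are log2 signals after quantile normalisation, errors of differences are standard errors of the limma model, n is 3 arrays per group, and a gene is called at an adjusted p under 0.05.

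Class II molecules hold peptides from endosomes at the cell surface, where CD4 T cells read them. An alpha and a beta chain fold around the invariant chain, Cd74, which proteases such as cathepsin S trim in the endosome, and the editor H2-DM then exchanges the remnant for peptides while H2-O restrains H2-DM. The genes of the class II chains share a promoter module with an X box, bound by the RFX complex, and a Y box, bound by NF-Y. Ciita does not bind DNA itself but assembles on this module, and it is induced by interferon-gamma or by cell-type-specific promoters in B cells and dendritic cells. In the lung, B cells, dendritic cells, macrophages and alveolar type 2 cells all carry class II. In RNA from a whole lung, fewer class II-bearing cells and less class II RNA per cell cannot be told apart.

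The shared module is visible in the promoters of 4 members, and these are shown. Lower values under O3 did not set these 4 apart, since all 10 members had negative differences in WT lungs. RefSeq promoter windows (GRCm38.p6, 250 bases before to 50 after the start of transcription) were at hand for 7 of the 10 genes, and none was used for H2-Ab1, Cd74 or Ciita. The letters GCAAC, part of the X box, followed 20 to 30 bases later on the same strand by GATTGG, a Y box core, were searched on both strands. The spacing was set after these sequences had been seen. Of 32851 mouse promoter windows, 67 (0.204%) held this pair, and 4 members were among them, with 24 to 27 bases between the 2 motifs. GATTGG alone was in 16.1% of windows and GCAAC alone in 35.2%, and H2-DMa held both without the spacing. The windows of Ctss and Ifi30 held neither. Capitals mark the 2 motifs, and each stretch reads 5′ to 3′ on the strand of its gene.
H2-Aa, chr17:34287845-34287924, minus strand: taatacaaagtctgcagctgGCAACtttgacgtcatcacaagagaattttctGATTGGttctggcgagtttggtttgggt
H2-Eb1, chr17:34305756-34305835, plus strand: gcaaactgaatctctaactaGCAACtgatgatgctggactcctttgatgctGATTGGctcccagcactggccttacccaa
H2-Oa, chr17:34092283-34092362, plus strand: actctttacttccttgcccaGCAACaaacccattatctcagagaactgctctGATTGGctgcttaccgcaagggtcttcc
H2-Ob, chr17:34238798-34238877, plus strand: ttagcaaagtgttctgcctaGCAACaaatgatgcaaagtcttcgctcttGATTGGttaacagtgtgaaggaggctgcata

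The classical chains fell in WT lungs under O3. H2-Ab1, the beta chain of I-A, was 1.69-fold lower in WT-O3 than in WT-Air, H2-Eb1, the beta chain of I-E, 1.65-fold lower, and H2-Aa, the alpha chain of I-A, 1.48-fold lower. These 3 of the 10 members were called lower, against 2.24% of all 17569 genes tested. All 10 members had negative differences, with a median of -0.49 against -0.03 over all genes. In this direction 6 of the 10 had an unadjusted p under 0.05 (10.1% of all genes), and in 6 the 3 WT-O3 arrays lay below the 3 WT-Air arrays without overlap (14.1% of all genes).

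H2-Aa had log2 signals of 12.83, 13.21 and 12.90 in WT-O3 lungs, against 13.53, 13.49 and 13.62 in WT-Air lungs. H2-Ab1 had 11.66, 12.01 and 11.74 in WT-O3 lungs, against 12.52, 12.42 and 12.73 in WT-Air lungs. H2-Eb1 had 12.06, 12.31 and 12.11 in WT-O3 lungs, against 12.82, 12.63 and 13.19 in WT-Air lungs. For each chain the highest O3 lung, WT-O3 replicate 2, was still below the lowest air lung. By limma the differences were -0.56 ± 0.14 for H2-Aa (adjusted p = 0.034), -0.75 ± 0.16 for H2-Ab1 (adjusted p = 0.018) and -0.72 ± 0.16 for H2-Eb1 (adjusted p = 0.024).

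**Figure D1:**
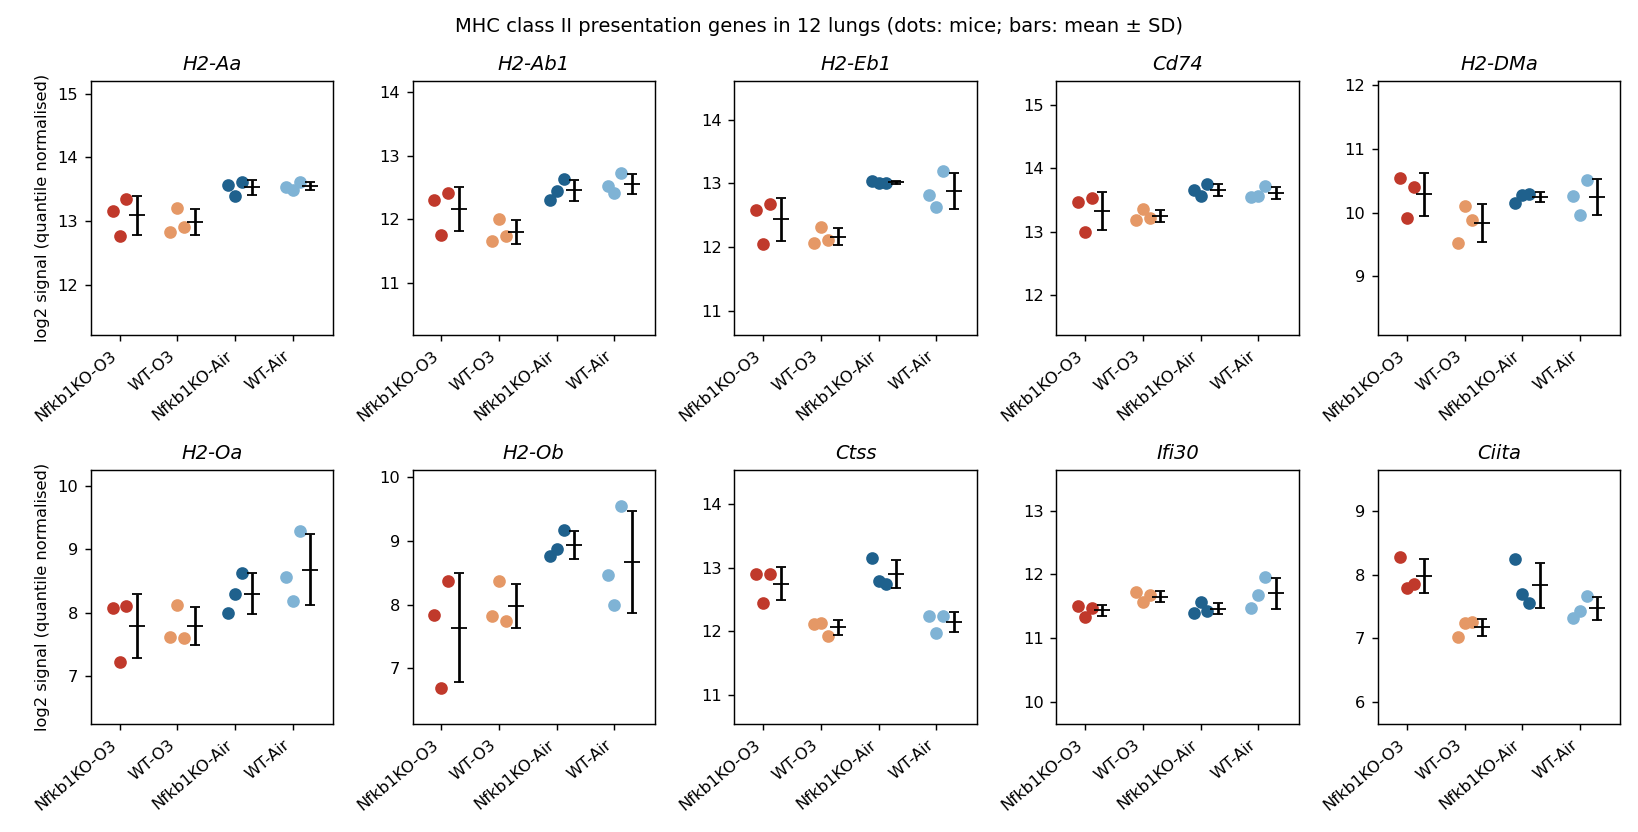
Log2 signal after quantile normalisation (y axis) of the 10 MHC class II presentation genes, 1 panel per gene, in Nfkb1KO-O3, WT-O3, Nfkb1KO-Air and WT-Air lungs. Dots are single mice and bars the mean ± SD of 3; every panel spans the same log2 range. The classical chains and Cd74 lie lower in the O3 groups, whereas Ctss separates the genotypes and Ifi30 lies within 11.33 to 11.96 in all lungs.

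Separate probe sets of these genes gave differences of the same sign in WT lungs. H2-Aa was read by 4 probe sets, whose differences ran from -0.99 to -0.56, and H2-Ab1 by 3, which ran from -0.81 to -0.68. With all 42559 probe sets tested together, 6 of the 18 member probe sets were called lower (1.08% of all probe sets): 1435290_x_at and 1438858_x_at of H2-Aa, all 3 of H2-Ab1 and the 1 of H2-Eb1. The remaining H2-Aa probe sets, 1452431_s_at and 1443783_x_at, gave -0.58 ± 0.15 (adjusted p = 0.054) and -0.99 ± 0.27 (adjusted p = 0.069). Over the 12 arrays the further H2-Aa probe sets correlated with the one standing for the gene at r = 0.95 to 0.97 and those of H2-Ab1 at r = 0.96 to 0.99, as a description of probes that read the same RNA. Probe sets ending in _x_at or _s_at can also bind related transcripts, so related class II chains may share some of this signal.

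The fold changes kept their sign when single arrays were left out, but the calls rested on few mice. Without WT-Air replicate 3, WT-O3 replicate 1 or WT-O3 replicate 3, none of the chains was called in WT lungs: H2-Ab1 then had an adjusted p of 0.076, 0.07 and 0.069. H2-Eb1 also lost its call without WT-Air replicate 1 (adjusted p = 0.054) or WT-O3 replicate 2 (adjusted p = 0.056), and H2-Aa without WT-Air replicate 1 (adjusted p = 0.077) or replicate 2 (adjusted p = 0.052). Across the 12 omissions the difference stayed between -0.86 and -0.67 for H2-Ab1, between -0.85 and -0.57 for H2-Eb1 and between -0.68 and -0.49 for H2-Aa. With arrays centred on their medians in place of quantile normalisation the chains were not called (H2-Ab1 -0.69 ± 0.28, adjusted p = 0.38), nor without a mean-dependent trend in the spread (H2-Ab1 -0.75 ± 0.18, adjusted p = 0.068).

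In Nfkb1-/- lungs the same chains gave lower values under O3 without a call. H2-Eb1 had log2 signals of 12.58, 12.05 and 12.68 in Nfkb1KO-O3 lungs, against 13.04, 13.01 and 13.00 in Nfkb1KO-Air lungs, a difference of -0.58 ± 0.16 (adjusted p = 0.052). H2-Aa had 13.15, 12.76 and 13.35 in Nfkb1KO-O3 lungs, against 13.56, 13.40 and 13.62 in Nfkb1KO-Air lungs, a difference of -0.44 ± 0.14 (adjusted p = 0.078). Neither gene overlapped between the groups. H2-Ab1 had 12.31, 11.76 and 12.41 in Nfkb1KO-O3 lungs, against 12.30, 12.45 and 12.63 in Nfkb1KO-Air lungs; these overlapped, and the difference was -0.30 ± 0.16 (adjusted p = 0.31). By limma, 0 of the 10 members were called in Nfkb1-/- lungs (2.83% of all genes were called lower). In the lower direction 4 members had an unadjusted p under 0.05 (10.6% of all genes), 4 did not overlap (12.3% of all genes), and the median was -0.31 against -0.01 over all genes. With arrays centred on their medians, which moved the median of all genes to 0.25, the differences were 0.02 for H2-Aa, -0.12 for H2-Eb1 and 0.17 for H2-Ab1. The lower values in Nfkb1-/- lungs were thus largely lost with centring. On the deposited scale the differences were -0.35 ± 0.14 for H2-Aa (adjusted p = 0.15) and -0.49 ± 0.16 for H2-Eb1 (adjusted p = 0.091).

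The mean of the 3 classical chains was 12.68, 12.19 and 12.81 in Nfkb1KO-O3, 12.18, 12.51 and 12.25 in WT-O3, 12.97, 12.95 and 13.09 in Nfkb1KO-Air, and 12.96, 12.84 and 13.18 in WT-Air. The O3 and Air lungs were separate only by a narrow margin after quantile normalisation, 12.81 at most against 12.84 at least. On the deposited scale they overlapped, with Nfkb1KO-O3 lungs reaching 12.86 and Nfkb1KO-Air lungs starting at 12.80. The 2 O3 groups overlapped each other, and so did the 2 Air groups.

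Whether the O3 change depended on Nfkb1 was tested as an interaction, the change in Nfkb1-/- lungs minus that in WT lungs. By limma 0 of the 10 members were called, where 0.0342% of all genes were, and 0 of 10 had an unadjusted p under 0.05, against 6.06% of all genes. For H2-Ab1, whose change was -0.30 in Nfkb1-/- and -0.75 in WT lungs, the interaction was 0.46 ± 0.23 with a 95% interval of -0.03 to 0.94 (adjusted p = 0.83). For H2-Aa it was 0.12 (-0.29 to 0.54) and for H2-Eb1 0.14 (-0.36 to 0.63). A call in WT lungs and none in Nfkb1-/- lungs is therefore not a shown difference between genotypes.

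**Figure D2:**
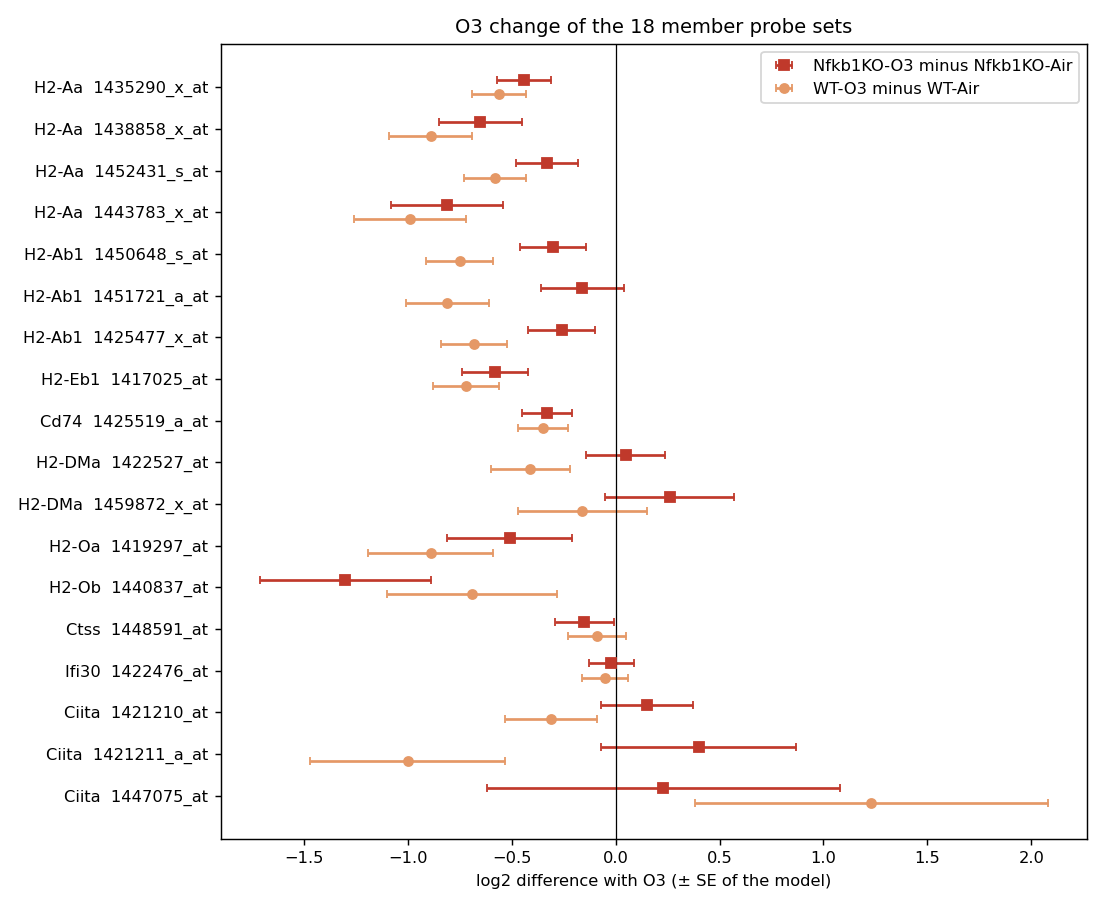
O3 change of each of the 18 member probe sets (log2 difference, x axis; bars are the standard error of the model) in Nfkb1KO (squares) and WT (circles) lungs. All H2-Aa, H2-Ab1, H2-Eb1 and Cd74 probe sets lie left of 0 in both genotypes, while those of Ctss and Ifi30 lie near 0 and those of Ciita spread to both sides.

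Cd74, the invariant chain that chaperones the class II dimers, lay lower in the O3 lungs of both genotypes and was called in neither. It had 13.47, 12.99 and 13.53 in Nfkb1KO-O3 lungs, against 13.65, 13.56 and 13.75 in Nfkb1KO-Air lungs (-0.33 ± 0.12, adjusted p = 0.14). In WT-O3 lungs it had 13.18, 13.36 and 13.22, against 13.55, 13.56 and 13.72 in WT-Air lungs (-0.35 ± 0.12, adjusted p = 0.13). In both comparisons every O3 lung was below every air lung. The interaction was 0.03, with a 95% interval of -0.35 to 0.40. In WT lungs Cd74 was called without Nfkb1KO-O3 replicate 2, whose removal narrows the shared spread (-0.35 ± 0.08, adjusted p = 0.024).

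The loading genes varied more. H2-DMa, the alpha chain of the peptide editor H2-DM, had 9.52, 10.10 and 9.89 in WT-O3 lungs, against 10.26, 9.96 and 10.52 in WT-Air lungs (-0.41 ± 0.19, adjusted p = 0.25). In Nfkb1-/- lungs its difference under O3 was 0.05 ± 0.19 (adjusted p = 0.91), and the groups overlapped in both genotypes. The second H2-DMa probe set, 1459872_x_at, was dimmer, correlated with the first at r = 0.64 and was not called in any comparison.

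H2-Oa and H2-Ob, the alpha and beta chains of the H2-DM inhibitor H2-O, are made mostly in B cells. H2-Oa had 7.62, 8.13 and 7.61 in WT-O3 lungs, against 8.57, 8.18 and 9.28 in WT-Air lungs, which did not overlap (-0.89 ± 0.31, 1.85-fold lower, adjusted p = 0.13). H2-Ob had 7.84, 6.69 and 8.37 in Nfkb1KO-O3 lungs, against 8.76, 8.87 and 9.18 in Nfkb1KO-Air lungs, which did not overlap either (-1.30 ± 0.42, 2.47-fold lower, adjusted p = 0.091). Neither was called. Without WT-Air replicate 3 the H2-Oa difference in WT lungs was -0.59 ± 0.30 (adjusted p = 0.38). Without Nfkb1KO-O3 replicate 2 the H2-Ob difference was -0.83 ± 0.38 (adjusted p = 0.26). In the other genotype the values were -0.51 ± 0.31 for H2-Oa in Nfkb1-/- lungs (adjusted p = 0.38) and -0.69 ± 0.42 for H2-Ob in WT lungs (adjusted p = 0.41), which ran from -1.03 to -0.25 when single arrays were left out. Their interactions had wide intervals, -0.57 to 1.33 for H2-Oa and -1.91 to 0.68 for H2-Ob.

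Ctss was the member that differed by genotype. This gene encodes cathepsin S, the cysteine protease that removes the last large part of the invariant chain in B cells and dendritic cells. It had 13.15, 12.79 and 12.75 in Nfkb1KO-Air lungs, against 12.24, 11.97 and 12.24 in WT-Air lungs, a difference of 0.75 ± 0.14 or 1.68-fold (limma, adjusted p = 0.046). After O3 it had 12.90, 12.45 and 12.90 in Nfkb1KO-O3 lungs, against 12.12, 12.13 and 11.93 in WT-O3 lungs, a difference of 0.69 ± 0.14 or 1.61-fold (adjusted p = 0.045). Each of the 6 Nfkb1-/- lungs was above each of the 6 WT lungs. It was the 1 member called in either comparison, where 0.256% of all genes were called higher in air and 0.552% after O3. The O3 differences of Ctss were -0.15 ± 0.14 in Nfkb1-/- and -0.09 ± 0.14 in WT lungs, and the interaction was -0.06 (95% interval -0.49 to 0.37).

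Both calls lay close to the threshold. When all probe sets were tested together the adjusted p was 0.06 in air and 0.057 after O3. With 1 array left out, the call in air held only without Nfkb1KO-O3 replicate 2 (adjusted p = 0.02), and in the other 11 cases the adjusted p was 0.052 to 0.15. After O3 it held without Nfkb1KO-O3 replicate 2 (adjusted p = 0.01), Nfkb1KO-Air replicate 1 (0.031) or WT-Air replicate 2 (0.04), and reached 0.21 at most. The difference itself stayed between 0.62 and 0.82 in air and between 0.61 and 0.84 after O3. Centring arrays on their medians gave 0.45 ± 0.21 in air (adjusted p = 0.56) and 0.79 ± 0.21 after O3 (adjusted p = 0.19). Ctss and Nfkb1 both lie on mouse chromosome 3, 40.1 Mb apart in GRCm38.p6, and the part that strain-derived sequence around the deletion may have in this difference was not tested. No other member lies on that chromosome.

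Some markers of monocytes and dendritic cells differed in the same comparisons, in both directions, and none was called by limma. In air Ccr2, a monocyte chemokine receptor, differed between genotypes by 0.98 ± 0.25 (adjusted p = 0.14), Cx3cr1 by 0.82 ± 0.31 (adjusted p = 0.34) and the dendritic cell lectin Cd209a by 2.54 ± 0.64 (adjusted p = 0.14). After O3 the Ccr2 difference was 0.73 ± 0.25 (adjusted p = 0.3). Dendritic cell genes that were lower in air were Siglech (-1.37 ± 0.55, adjusted p = 0.36) and Itgae (-0.71 ± 0.29, adjusted p = 0.38). After O3 they were Itgae (-1.25 ± 0.29, adjusted p = 0.09), Xcr1 (-1.35 ± 0.48, adjusted p = 0.33) and Zbtb46 (-0.50 ± 0.21, adjusted p = 0.47). The 7 monocyte and interstitial macrophage genes had a median of -0.05 in air (2 higher at an unadjusted p under 0.05) and of 0.24 after O3 (1 higher). The 9 dendritic cell genes had a median of -0.20 in air (1 higher and 2 lower) and of -0.50 after O3 (3 lower). The part of these cells in the Ctss difference was not tested.

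The Ctss promoter lacked the spaced X and Y box pair. It held GAAA, any 2 bases, then GAAA, the core of an interferon-stimulated response element, at position -21 from the start of transcription. This core, searched on both strands, was in 3.44% of the 32851 windows and in no other member window.
Ctss, chr3:95526745-95526824, plus strand, core in capitals: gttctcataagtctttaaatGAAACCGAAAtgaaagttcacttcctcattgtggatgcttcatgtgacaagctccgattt

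**Figure D3:**
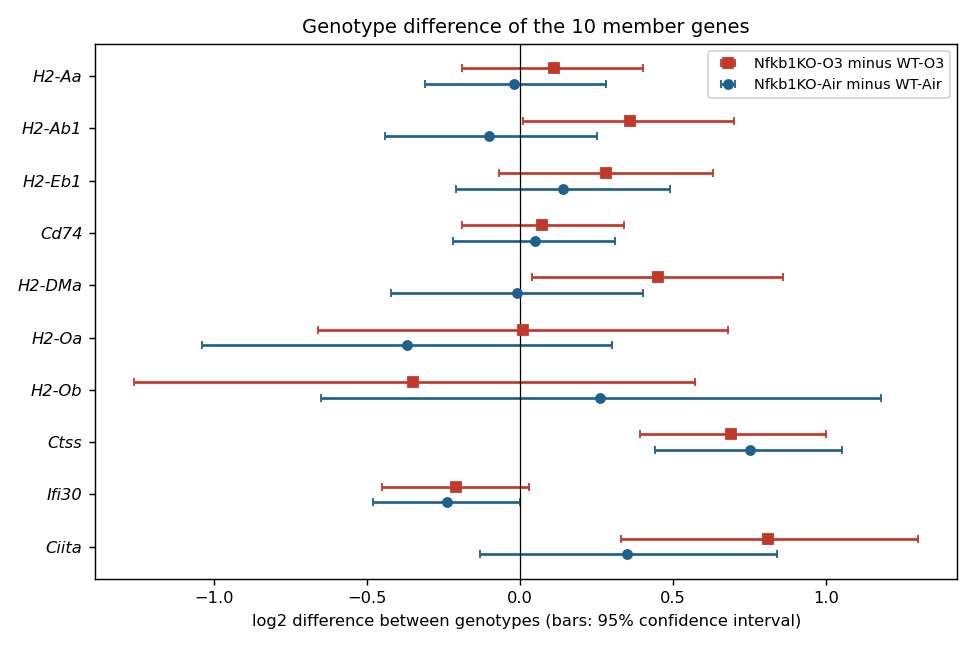
Genotype difference of each member gene (log2 difference, x axis; bars are 95% confidence intervals) after O3, Nfkb1KO-O3 minus WT-O3 (squares), and in air, Nfkb1KO-Air minus WT-Air (circles). The intervals of Ctss lie right of 0 in both exposures, and those of Ciita, H2-DMa and H2-Ab1 right of 0 only after O3, without passing the adjusted threshold.

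Ifi30 encodes GILT, the thiol reductase that opens disulphide bonds of antigens in the endosome. Its 4 pairwise differences all lay between -0.24 and -0.02, and none was called. Its log2 signals were 11.50, 11.33 and 11.47 in Nfkb1KO-O3 lungs, against 11.72, 11.56 and 11.67 in WT-O3 lungs, which did not overlap (-0.21 ± 0.11, adjusted p = 0.61). In air the difference between genotypes was -0.24 ± 0.11 (adjusted p = 0.45), and under O3 it was -0.02 ± 0.11 in Nfkb1-/- and -0.05 ± 0.11 in WT lungs.

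Ciita, the transactivator of the class II promoters, had its higher means in Nfkb1-/- lungs, 7.98 ± 0.27 in Nfkb1KO-O3 and 7.83 ± 0.36 in Nfkb1KO-Air, against 7.17 ± 0.13 in WT-O3 and 7.47 ± 0.18 in WT-Air (SD, n = 3 each). It had 8.28, 7.79 and 7.86 in Nfkb1KO-O3 lungs, against 7.02, 7.24 and 7.25 in WT-O3 lungs, a difference of 0.81 ± 0.22 or 1.75-fold that was not called (adjusted p = 0.17). After O3, Ciita and Ctss were the 2 members whose Nfkb1-/- lungs all lay above the WT lungs (9.31% of all genes). In air Ciita had 8.24, 7.69 and 7.56 in Nfkb1KO-Air lungs, against 7.32, 7.43 and 7.67 in WT-Air lungs (0.35 ± 0.22, adjusted p = 0.59), with overlap. Under O3 it differed by 0.15 ± 0.22 in Nfkb1-/- lungs (adjusted p = 0.75) and by -0.31 ± 0.22 in WT lungs (adjusted p = 0.5).

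The Ciita probe sets did not track each other closely. Probe set 1421211_a_at gave 1.54 ± 0.47 between genotypes after O3 (adjusted p = 0.31 over all probe sets) without overlap, and correlated with 1421210_at, which stands for the gene, at r = 0.65. The third, 1447075_at, was below a log2 signal of 4.37, the level of the 20th percentile, in 3 of 12 arrays and gave 0.73 ± 0.85. The other 17 member probe sets were above that level in every array. Promoter IV of Ciita answers to interferon-gamma, whereas promoters I and III serve dendritic cells and B cells, and these probe sets were not assigned to promoters here.

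After O3, H2-DMa and H2-Ab1 also had unadjusted p-values under 0.05 between genotypes. With Ctss and Ciita, 4 of the 10 members were higher at that level by limma, against 824 of all 17569 genes. H2-DMa had 10.54, 9.91 and 10.41 in Nfkb1KO-O3 lungs, against 9.52, 10.10 and 9.89 in WT-O3 lungs (0.45 ± 0.19, adjusted p = 0.45). H2-Ab1 differed by 0.36 ± 0.16 (adjusted p = 0.5), H2-Eb1 by 0.28 ± 0.16 (adjusted p = 0.65) and H2-Aa by 0.11 ± 0.14 (adjusted p = 0.88). The groups overlapped for each of these 4 genes. In air the same chains differed between genotypes by -0.10 ± 0.16, 0.14 ± 0.16 and -0.02 ± 0.14, and the 95% interval for H2-Aa was -0.31 to 0.28.

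Within groups, the same lungs were high or low for many members. Nfkb1KO-O3 replicate 2 was the lowest of its group for all 10 members, and WT-Air replicate 3 the highest of its group for all 10. After each group's mean had been subtracted, H2-Ab1 correlated over the 12 arrays with Cd74 at r = 0.93, with H2-Oa at 0.93 and with H2-Aa at 0.89, against 0.13 with Ciita and 0.35 with Ifi30. Over the other members Ciita ran from 0.13 with H2-Ab1 to 0.62 with Ctss, and Ifi30 from 0.09 with H2-Aa to 0.53 with H2-Ob. Arrays differ in many genes at once, so these values describe the lungs and carry no test.

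The summed B cell markers moved in the same lungs. The mean log2 signal of 11 B cell genes was 7.52, 6.97 and 7.92 in Nfkb1KO-O3, 7.65, 8.02 and 7.43 in WT-O3, 8.06, 7.99 and 8.28 in Nfkb1KO-Air, and 8.02, 7.51 and 8.83 in WT-Air. Nfkb1KO-O3 replicate 2 was thus the lowest and WT-Air replicate 3 the highest of all. Under O3 the list had a median of -0.70 in Nfkb1-/- and -0.44 in WT lungs, with 10 and 9 of 11 genes below 0 and 0 called by limma in either. At an unadjusted p under 0.05, 3 of them were lower in Nfkb1-/- and 1 in WT lungs. Without WT-Air replicate 3 alone the WT differences were -0.52 ± 0.16 for H2-Aa, -0.67 ± 0.18 for H2-Ab1 and -0.57 ± 0.16 for H2-Eb1, none of them called. Without both of these arrays, an omission chosen after seeing the data, they were -0.52 ± 0.12, -0.66 ± 0.12 and -0.57 ± 0.09, and all 3 were called with the smaller errors. The part of B cell content in the class II values was not tested.

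**Figure D4:**
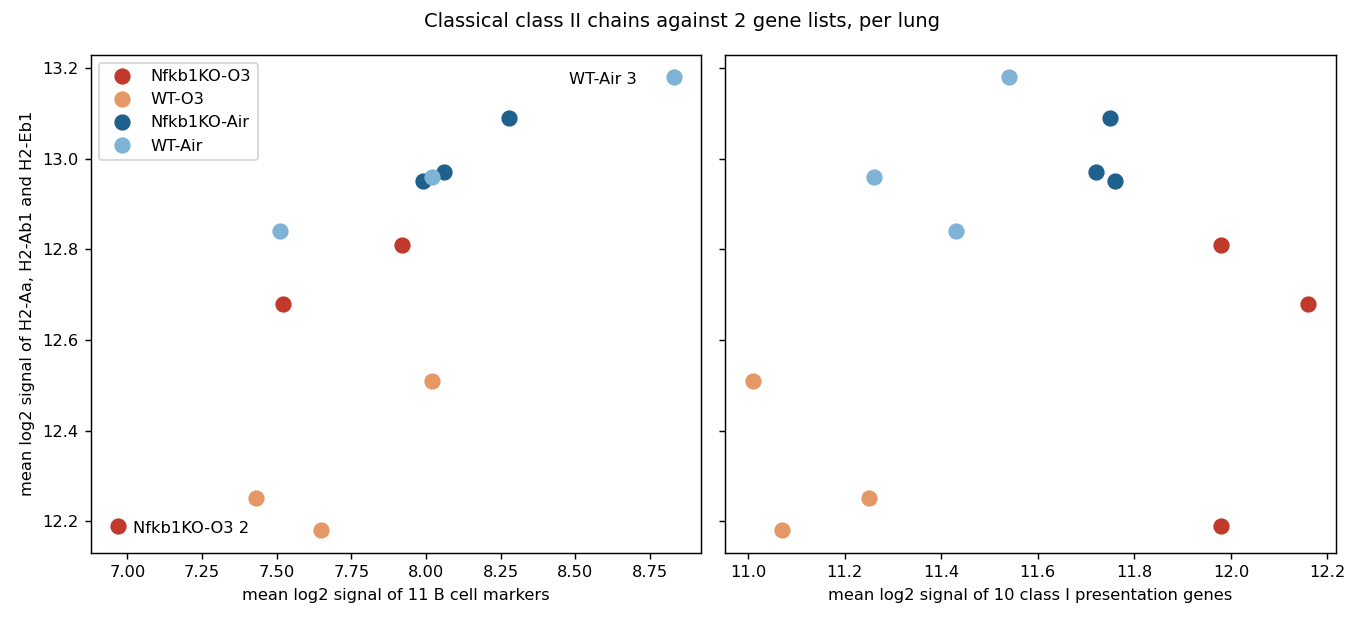
Mean log2 signal of H2-Aa, H2-Ab1 and H2-Eb1 (y axis) against the mean log2 signal of 11 B cell markers (left) and of 10 class I presentation genes (right), 1 point per lung, coloured by group. The chains run from 12.18 to 13.18. Lungs low in B cell markers tend to be low in the chains, while the class I genes place the Nfkb1KO-O3 lungs farthest to the right, between 11.98 and 12.16.

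Markers of other cells that can carry class II, and of T cells, had few calls. Of 9 dendritic cell genes 0 were called by limma under O3, with a median of -0.13 in Nfkb1-/- lungs (1 lower at an unadjusted p under 0.05) and 0.13 in WT lungs (0 at that level). Their mean was 6.93 to 7.48 in Nfkb1KO-O3, 7.33 to 7.75 in WT-O3, 7.39 to 7.45 in Nfkb1KO-Air and 7.30 to 7.73 in WT-Air lungs. The dendritic cell range was thus widest toward low values in Nfkb1KO-O3, where replicate 2 was again the lowest. Of 7 alveolar type 2 cell genes 0 were called either, with medians of 0.07 in Nfkb1-/- lungs (2 higher and 1 lower at an unadjusted p under 0.05) and 0.01 in WT lungs (3 higher). Of 7 alveolar macrophage genes, Chil3 was higher under O3 in both Nfkb1-/- (0.42 ± 0.09, adjusted p = 0.019) and WT lungs (0.45 ± 0.09, adjusted p = 0.017), and the list medians were 0.42 and 0.44, with 3 of 7 genes higher at an unadjusted p under 0.05 in each genotype. Of 7 monocyte and interstitial macrophage genes, Ccr2 fell in Nfkb1-/- lungs (-1.01 ± 0.25, adjusted p = 0.031), and the list medians were -0.23 in Nfkb1-/- and -0.53 in WT lungs. Of these 7 genes 6 were below 0 in Nfkb1-/- lungs (3 lower at an unadjusted p under 0.05) and 7 in WT lungs (4 lower). The monocyte list averaged 9.51 to 9.67 in Nfkb1KO-O3, 9.16 to 9.40 in WT-O3, 9.89 to 10.05 in Nfkb1KO-Air and 9.37 to 10.06 in WT-Air lungs. T cell markers had 0 of 7 called and medians of 0.09 in Nfkb1-/- lungs (0 at an unadjusted p under 0.05) and -0.42 in WT lungs (1 lower). Their parts in the class II values were not tested either.

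Genes whose levels followed the mean of the 3 chains most closely over the 12 arrays, among 8777 non-member genes above the median level, were Fat4 (Pearson's r = 0.95), Syk (0.92), Capn15 (0.92), Ptpn18, Exoc6, Pou2af1 and Ncf1 (0.91 each), and Sh3bp5, Marcksl1 and St8sia4 (0.90 each). Spearman's rho was 0.82 to 0.97 for these genes, and r without the 2 lungs farthest from the median of the chains was 0.84 to 0.93. They were picked for the highest values, and the lungs share their group differences, so no p is given. None belongs to the fixed lists. Pou2af1 is a coactivator of B cells, Syk a kinase behind B cell and Fc receptors, and Ncf1 a subunit of the phagocyte oxidase.

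Other chains of the pathway gave 0 calls by limma in 3 measured genes, with 1 lower under O3 at an unadjusted p under 0.05 in each genotype. H2-DMb2, a beta chain of H2-DM, differed under O3 by -0.14 ± 0.25 in Nfkb1-/- lungs (adjusted p = 0.78) and by -0.60 ± 0.25 in WT lungs (adjusted p = 0.19). H2-Ea, the alpha chain of I-E, is not transcribed in C57BL/6 mice because of a promoter deletion, and its log2 signals of 3.62 to 4.78 lay around the 20th percentile level in all groups. H2-Eb2 had 6.17, 4.59 and 4.79 in Nfkb1KO-O3 lungs, against 7.49, 6.71 and 6.09 in Nfkb1KO-Air lungs (-1.58 ± 0.55, adjusted p = 0.11).

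Among 11 factors of the class II promoter, Rfx5, the DNA-binding subunit of RFX, fell under O3 in Nfkb1-/- lungs (-0.55 ± 0.13, 1.46-fold lower, adjusted p = 0.031). In WT lungs it differed by -0.38 ± 0.13 (adjusted p = 0.13). It was the 1 factor called in any comparison, and Creb1 and the NF-Y subunit Nfya gave -0.34 ± 0.11 (adjusted p = 0.084) and -0.31 ± 0.11 (adjusted p = 0.11) in Nfkb1-/- lungs. The list medians under O3 were near 0, at -0.00 in Nfkb1-/- and -0.02 in WT lungs.

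Of 12 measured genes that induce Ciita, 1 rose and 1 fell under O3 in each genotype. Il4ra, the receptor for interleukin-4, rose in Nfkb1-/- (0.65 ± 0.11, adjusted p = 0.0062) and WT lungs (0.69 ± 0.11, adjusted p = 0.0045), whereas Stat6, which carries its signal, fell in both (-0.51 ± 0.08, adjusted p = 0.0045, and -0.39 ± 0.08, adjusted p = 0.018). Ifng had 5.61, 5.35 and 4.59 in Nfkb1KO-O3 lungs, against 2.91, 3.29 and 1.61 in WT-O3 lungs, where it was below the 20th percentile level in all 3. That difference was not called (adjusted p = 0.072), nor was that of Irf1, a transcription factor that interferon-gamma induces (0.63 ± 0.15, adjusted p = 0.093). Ifngr2, a chain of the interferon-gamma receptor, differed the other way (-0.53 ± 0.21, adjusted p = 0.39). Between genotypes after O3 the 12 genes had a median of 0.00, with 6 below 0. By limma 2 were higher and 1 was lower at an unadjusted p under 0.05. Of 7 genes that act on Ciita or surface class II, most of them as restraints, 0 were called by limma in any comparison. Under O3 in WT lungs 1 of them was higher and 2 were lower at an unadjusted p under 0.05, and Cd83, which opposes removal of class II from the surface, gave -0.70 ± 0.22 (adjusted p = 0.088).

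In the endosome, Ctsh was the 1 of 11 proteases and related genes that passed the test. Ctsh encodes cathepsin H, an aminopeptidase that is abundant in alveolar type 2 cells, and it rose under O3 in Nfkb1-/- (0.76 ± 0.11, 1.69-fold, adjusted p = 0.0033) and WT lungs (0.90 ± 0.11, 1.86-fold, adjusted p = 0.0012). It had 13.72, 13.85 and 13.62 in WT-O3 lungs, against 12.89, 13.02 and 12.58 in WT-Air lungs. Ctss, by contrast, had differences within 0.15 of 0 under O3.

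Class I presentation, given for comparison, had more calls by genotype. Some of its 10 genes had been singled out by the study on these arrays, and 6 were called higher in Nfkb1KO-O3 lungs relative to those of WT-O3. They included Nlrc5, the class I counterpart of Ciita (2.33 ± 0.24, 5.02-fold, adjusted p = 3.2e-04), the peptide transporter Tap1 (1.87 ± 0.14, 3.65-fold, adjusted p = 2e-05) and the immunoproteasome subunit Psmb9 (1.55 ± 0.15, 2.93-fold, adjusted p = 1.2e-04). Nlrc5 had 9.94, 9.36 and 9.23 in Nfkb1KO-O3 lungs, against 7.10, 6.87 and 7.59 in WT-O3 lungs. The median of the list was 0.63, and that of the 10 class II members in the same comparison was 0.19. Under O3, 4 class I genes rose in Nfkb1-/- lungs, among them Tap1 and Tap2, and 2 fell in WT lungs, Tap1 and Psmb9. The class I and class II genes were not tested against each other.

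Some array measures moved with exposure. The Gapdh 3′ minus 5′ log2 difference on the deposited scale was -0.55 to -0.37 in the O3 arrays and -0.36 to -0.10 in the Air arrays, and the poly-A spike-in controls averaged 7.97 to 8.69 in the O3 arrays and 8.68 to 9.08 in the Air arrays. WT-Air replicate 3, the highest of its group for all 10 members, also held the most skeletal muscle RNA, with a mean of 11.31 over 10 muscle genes against 5.20 to 9.03 in the other arrays. The 9.03 was that of Nfkb1KO-O3 replicate 2, the lowest of its group for all 10 members. Nfkb1KO-Air replicate 1 had a median signal of 180, against 99.1 to 121 in the others. Alveolar type 2 and club cell markers were bright in every array, with means of 13.33 to 13.54 and 14.35 to 14.64. The annotation named 0 probe sets for Nfkb1, so that the genotypes rest on the labels alone. The parts of RNA quality and tissue content in the class II values were not tested.

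**Figure D5:**
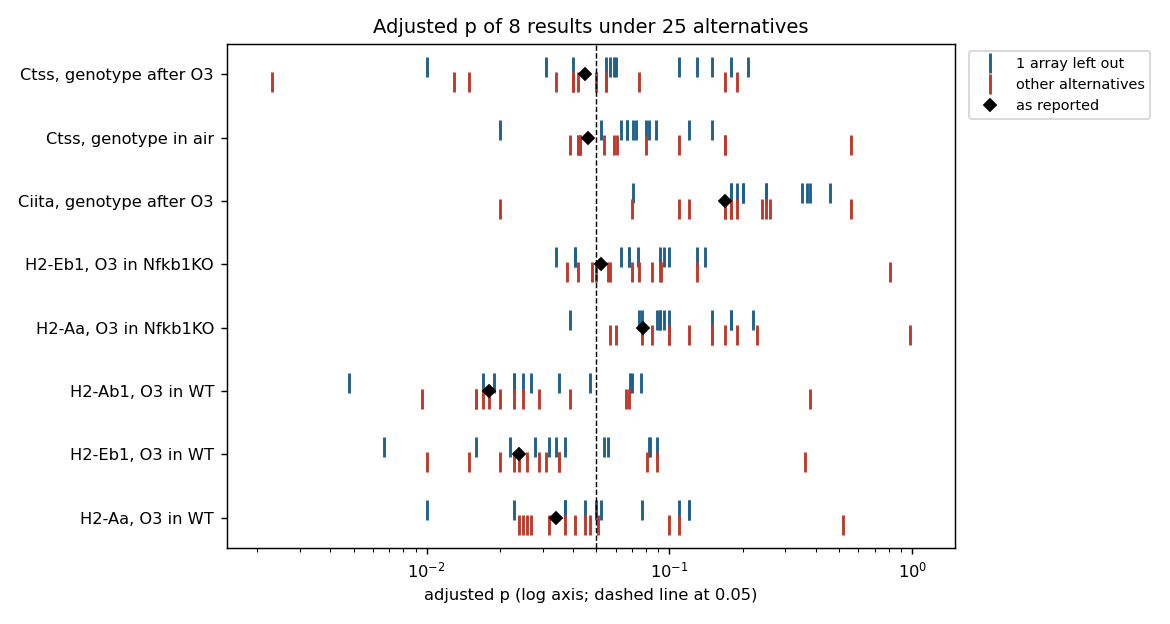
Adjusted p (x axis, log scale; dashed line at 0.05) of 8 results, as reported (diamonds), with 1 array left out (upper ticks) and under the other alternatives (lower ticks), 25 alternatives in all. H2-Ab1 in WT lungs under O3 was called in 19 of 25, H2-Eb1 in 17 and H2-Aa in 16, while Ctss was called in 6 of 25 in air and in 11 of 25 after O3.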

How the data were processed

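The deposited intensities, 1 linear signal per probe set and array, were made by the authors with MAS5 in Affymetrix Expression Console (versions not given in the sources used here) and scaled to a trimmed mean of 500 per array. Of 45101 probe sets, 64 controls were set aside. Deposited intensities were floored at 1, log2 transformed and quantile normalised over the 12 arrays. Probe sets above the 20th percentile of at least 1 array were kept (42559), and the probe set with the highest mean stood for a gene (17569 genes), following GEO's platform annotation, in which 34958 probe sets had 1 symbol, 932 several and 9211 none; 34754 of the first were found in RefSeq (GRCm38.p6). A model with a mean for each group, over all 12 arrays, was fitted with limma 3.58.1 in R 4.3.3, with a mean-dependent trend (12.6 degrees of freedom with the prior) and Benjamini-Hochberg adjustment over all genes or all probe sets. Pairs of 3 arrays allow no exact two-sided p under 0.1 and the small number of arrays limits precision. The procedure was tested on simulated data in which each value was drawn independently. That cannot show how the calls fare where arrays differ in many genes at once. Groups came from the sample labels. The members and gene lists were chosen with earlier results of these data known. All members are named, as are, per list and comparison, at most 4 genes ranked by p, and the 10 genes most like the classical chains. Alternatives covered normalisation, floor, pseudocount, filter, choice of probe set, spread model, replicate block and arrays left out.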

Additional observations from a re-analysis of the deposited data

How the results depend on the processing

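As reported, the members called were 1 between genotypes in air, 1 between genotypes after O3, 3 under O3 in WT lungs, 0 under O3 in Nfkb1-/- lungs and 0 for the interaction. With arrays centred on their medians in place of quantile normalisation, and likewise with no mean-dependent trend, the first 3 counts were 0, 0 and 0. A floor of 32, averaging all probe sets of a gene, and a fit to the arrays of the compared groups alone each gave 0 in air and 0 after O3. No filter gave 0 in air. Array weights gave 0 in air, 2 after O3 (with Ciita) and 2 under O3 in Nfkb1-/- lungs. A pseudocount of 16, a stricter filter, and, chosen after seeing the data, the omission of the 2 arrays far in B cell markers gave 1 under O3 in Nfkb1-/- lungs, H2-Eb1. Without Nfkb1KO-Air replicate 1 and WT-Air replicate 3 the counts were 0 in air and 0 under O3 in WT lungs. With 1 array left out the counts ran from 0 to 1 in air, 0 to 1 after O3, 0 to 4 under O3 in WT lungs, 0 to 2 under O3 in Nfkb1-/- lungs and 0 to 0 for the interaction. Of the 6 member probe sets called under O3 in WT lungs, 0 were called after centring and 4 on the deposited scale, which also called 1 in air and 1 after O3. The methods' t-test in air called 1 member unadjusted (1182 genes) and 0 after Benjamini-Hochberg adjustment. No called difference changed sign under these alternatives. Centring moved the median of all genes to -0.20 in air, 0.25 under O3 in Nfkb1-/- lungs and 0.25 for the interaction. Under it, H2-Aa and H2-Ab1 differed by 0.02 and 0.17 under O3 in Nfkb1-/- lungs, and the member median there, 0.16, lay below that of all genes. Of the genes called under O3, 54.2% were higher in Nfkb1-/- and 58.5% in WT lungs, against 93.8% and 87.4% after centring. Centring shifts each array by its own median, and the median signal of Nfkb1KO-Air replicate 1 was 180, against 99.1 to 121 in the others. Why these settings move the calls was not tested.

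Arrays with the same replicate number in different groups did not deviate together over all genes (r = -0.08 to 0.11). The labels give replicate numbers alone, and these correlations cannot show whether mice were paired or shared a batch. With the replicate block the members called were 1, 1, 2, 0 and 0 in the same order, H2-Aa under O3 in WT lungs having an adjusted p of 0.051.

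No detection calls were used, so that the reliability of dim probe sets such as 1447075_at of Ciita is known only from their spread between arrays.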
